A study of Mus musculus with 2 samples.

Results

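The 10 genes described here encode receptors for dopamine (Drd1, Drd2, Drd5), noradrenaline (Adra1a, Adra1b, Adra1d, Adra2a, Adrb1), orexin (Hcrtr2) and endocannabinoids (Cnr1). They were taken by symbol from a fixed list, and all 10 were found among 43346 gene identifiers. RNA came from 2 pools of 50 layer 5 pyramidal neurons, the large excitatory output cells of the deep cerebral cortex, cut from tissue by laser. Both pools were wild-type males aged 8 months, labelled strain B6NCrl in one field and C57Bl5 or C57Bl6 in others, with no treatment named and the tag Control for antibody. They are replicate 1 and replicate 2 of the labels, called pool 1 and pool 2 here. A single donor identifier is given for the pair, and separate animals are not established by it. Their spread may be technical only.

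All 10 receptors are membrane proteins that signal through G proteins. Drd1, Drd5 and Adrb1 act mainly through Gs, which raises cyclic AMP. Drd2, Adra2a and Cnr1 act mainly through Gi, which lowers it and opens potassium channels, and the alpha1 adrenoceptors and Hcrtr2 act mainly through Gq, which releases calcium. In cortex, dopamine and noradrenaline arrive on axons from the midbrain and the locus coeruleus and orexin on axons from the hypothalamus. Endocannabinoids are made by neurons themselves and act back on presynaptic terminals that carry the Cnr1 product.

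With 1 group of 2 libraries there is no contrast between conditions, and an exact two-sided test of 2 values cannot go below p = 0.5. Levels are therefore given per library as TPM (a level corrected for transcript length and library size) with mean and SD, and no test was run. Estimated reads numbered 24171434 in pool 1 and 27946180 in pool 2. All 6 glutamatergic markers and all 7 layer 5 markers were detected (TPM of at least 1) in each library, beside 52.2% of protein-coding genes. Markers of interneurons and glia were present too. In pooled cells, fewer cells of a type and less RNA per cell cannot be told apart. Intervals and floors below cover counting error only, since reads without molecular identifiers are not independent molecules.

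Close relatives among these receptors could share reads, so the most alike coding stretches of 60 bases are shown first. For the alpha1 adrenoceptors (mm10, exonic and coding in each gene) these lie at chr11:43835408-43835467 on the minus strand for Adra1b, chr14:66638142-66638201 on the plus strand for Adra1a and chr2:131561353-131561412 on the minus strand for Adra1d. Capitals mark the 20 positions at which the 3 genes are not all alike.
Adra1b: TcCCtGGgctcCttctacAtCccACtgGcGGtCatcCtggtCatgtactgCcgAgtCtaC
Adra1a: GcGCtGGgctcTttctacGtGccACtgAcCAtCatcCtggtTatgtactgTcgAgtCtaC
Adra1d: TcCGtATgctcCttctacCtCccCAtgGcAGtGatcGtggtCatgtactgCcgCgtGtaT

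In this stretch Adra1a and Adra1b were identical at 50 of 60 bases, Adra1b and Adra1d at 48 and Adra1a and Adra1d at 40, with no identical run longer than 16 bases. The stretch most alike between the Gs-coupled dopamine receptors lies at chr13:54053837-54053896 on the minus strand for Drd1 and chr5:38320011-38320070 on the plus strand for Drd5, again within coding exons. Capitals mark the 7 positions that differ.
Drd1: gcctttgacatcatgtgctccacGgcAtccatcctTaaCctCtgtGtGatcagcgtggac
Drd5: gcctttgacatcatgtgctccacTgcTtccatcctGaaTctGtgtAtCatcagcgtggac

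The longest run shared in this stretch was 23 bases. Over all their transcripts, 9 of the 10 receptors shared no sequence of 31 bases with any other receptor of the 4 families, on either strand. Hcrtr2 shared 6 such sequences with Hcrtr1, out of 6129.  Drd5 differed in another way, since 48.1% of its 3122 sequences of 31 bases also occur, on the opposite strand, in the antisense gene Gm26560 (chromosome 5, 38317333 to 38320897). Adra1d shared 6.31% of its sequences with the antisense gene Gm14285 (chromosome 2, 131561614 to 131563179). All these sequences are from the annotation GENCODE M21, whereas reads were quantified on GENCODE M4. The Drd5 transcript has 3152 bases in M21 and 2802 in the quantification, and those of Drd2, Adra2a and Adrb1 differ in length too. The shares therefore apply to the M21 transcripts. The sources used here do not name strand use in counting, but reads were divided between genes on opposite strands. Drd5 and Gm26560 had the same posterior SD (uncertainty of the estimated reads), 0.72 reads in pool 1 and 2.19 in pool 2. Reads in these overlaps therefore cannot be assigned with certainty.

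Cnr1, the gene of the CB1 cannabinoid receptor, had the highest level of the 10 in each pool (chromosome 4, 33924593 to 33948831, plus strand). It stood at 28.2 TPM in pool 1, from 3201 reads, and at 37.1 TPM in pool 2, from 4705 reads (32.6 ± 6.24 TPM, SD, n = 2). Its level was 5.35 times that of the next receptor in pool 1 and 5.96 times in pool 2. Cnr1 alone made up 55.0% and 60.6% of the summed TPM of the 10 receptors. Its level exceeded that of 83.6% and 86.4% of 21474 protein-coding genes.

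The other 9 receptors lay between 0.14 and 5.28 TPM in pool 1 and between 0 and 6.22 TPM in pool 2. Their medians of 2.30 and 2.25 TPM were near the medians of all protein-coding genes, 2.02 and 1.84 TPM. At TPM of at least 1, 8 of the 10 receptors were detected in pool 1 and 7 in pool 2, and 6 in each library: Drd5, Adra1a, Adra1b, Adrb1, Hcrtr2 and Cnr1. For all annotated genes the share detected in each library was 29.6%, and for protein-coding genes it was 52.2%. A minimum of TPM 5 left Cnr1 alone.

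**Figure D1:**
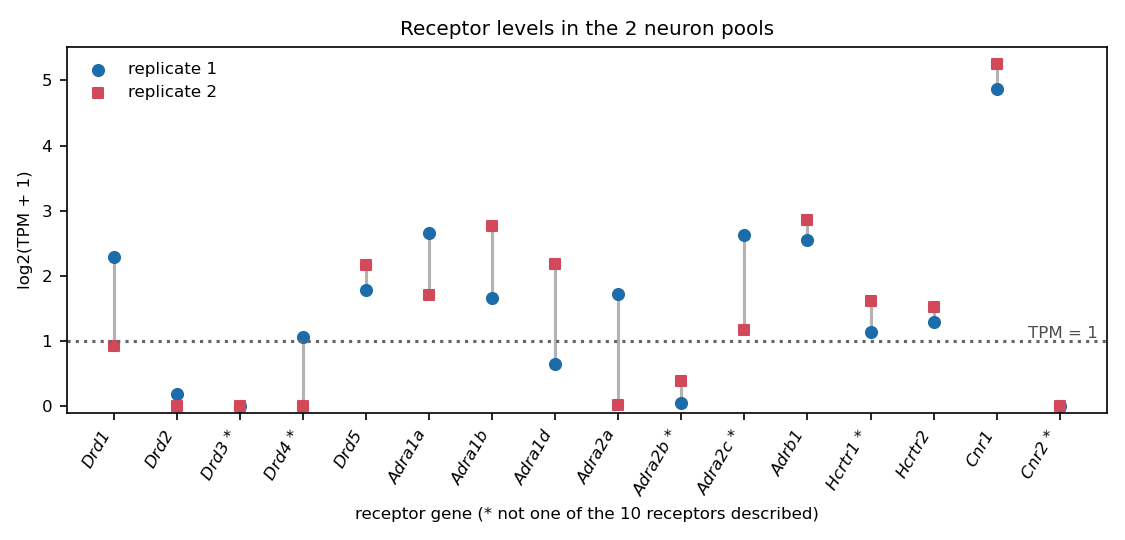
Levels of the 10 receptors and, marked by asterisks, of further dopamine, alpha adrenergic, orexin and cannabinoid receptor genes, as log2(TPM + 1) on the vertical axis, with a circle for pool 1 (replicate 1), a square for pool 2 (replicate 2) and a line joining them. The dotted line marks a TPM of 1. Cnr1 stands apart at 28.2 and 37.1 TPM, and the order of the others differs between the pools.

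Cnr1, Drd5 and Drd2 held the same rank in each pool, and the other 7 receptors did not. On the log2(TPM + 1) scale Cnr1 exceeded Adrb1, the next in the order of means, by 2.31 in pool 1 and 2.40 in pool 2 (2.35 ± 0.06, SD, n = 2). None of the other 8 neighbours in that order (Adrb1, Adra1b, Adra1a, Drd5, Drd1, Adra1d, Hcrtr2, Adra2a, Drd2) differed by more than 1 SD. In 6 of these 8 pairs the difference had opposite signs in the libraries. Adra1a had rank 2 in pool 1 and rank 6 in pool 2, and Drd1 had ranks 4 and 8.

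Among the Gs-coupled receptors, Adrb1 and Drd5 had similar levels in the pools and Drd1 did not. Adrb1, the main cardiac and a major cortical beta adrenoceptor (chromosome 19, 56722199 to 56733113), stood at 4.89 TPM in pool 1 and 6.22 TPM in pool 2, from 234 and 333 reads. Drd5, a dopamine receptor with high affinity for its ligand (chromosome 5, 38319367 to 38322518), stood at 2.43 and 3.49 TPM, from 131.63 and 211.24 estimated reads. Its read count is not whole because reads were divided with Gm26560, which was given 3.37 and 32.76 reads.

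Drd1, the receptor through which dopamine raises cyclic AMP in striatal and cortical neurons (chromosome 13, 54051183 to 54055705), stood at 3.90 TPM in pool 1 and 0.89 TPM in pool 2. These levels rest on 267 and 68 reads, with 95% exact Poisson intervals of 235.9 to 301 reads and of 52.8 to 86.2 reads. Replicate 1 was the higher pool, 4.39-fold in CPM (reads corrected for library size alone, scaled by TMM), with a 95% exact conditional binomial interval of 3.35 to 5.82. Drd1 and Drd5 changed places: Drd1 was the higher of the pair in pool 1 and Drd5 in pool 2. Summed over Drd1, Drd5 and Adrb1 the Gs-coupled level was 11.2 and 10.6 TPM (10.9 ± 0.44, SD, n = 2).

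The 3 alpha1 adrenoceptors, which respond to noradrenaline through Gq, were all present but in a different mixture in each pool. Adra1a (chromosome 14, 66635251 to 66771168) reached 5.28 TPM in pool 1 against 2.25 TPM in pool 2, from 433 and 203 reads. Adra1b (chromosome 11, 43774606 to 43901210) stood at 2.15 and 5.79 TPM, from 127 and 365 reads. Adra1d (chromosome 2, 131545850 to 131562283) stood at 0.56 and 3.54 TPM, from 20 and 142.67 estimated reads.

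Adra1a was thus the higher gene in pool 1, and Adra1b and Adra1d in pool 2. Adra1a held 66.1% of the alpha1 TPM in pool 1 and 19.4% in pool 2, whereas Adra1b held 26.9% and 50.0% and Adra1d 7.01% and 30.6%. In CPM, Adra1a was 2.38-fold higher in pool 1, with a counting interval of 2.01 to 2.83. Adra1b was 2.57-fold higher in pool 2, with an interval of 2.10 to 3.17, and Adra1d 6.38-fold higher, with an interval of 3.99 to 10.8. As given with the stretches printed above, these 3 genes have no sequence of 31 bases in common. The summed alpha1 level was 7.99 and 11.6 TPM (9.79 ± 2.54, SD, n = 2).

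Among Gi-coupled receptors, Adra2a was detected in pool 1 alone. Adra2a, the alpha2A adrenoceptor, known for its role in prefrontal working memory and as a presynaptic autoreceptor (chromosome 19, 54044151 to 54048982), had 170 reads in pool 1 and 1 read in pool 2. Its levels were 2.30 and 0.01 TPM. The ratio of CPM was 190.0, with a 95% exact counting interval of 33.7 to 7550. Drd2, the target of antipsychotic drugs (chromosome 9, 49340627 to 49408177), had 4 reads in pool 1 and 0 in pool 2. That is 0.14 TPM in pool 1, while in pool 2 a floor of 3 reads allows up to 0.0924 TPM. Summed over Drd2 and Adra2a alone, the level was 2.44 TPM in pool 1 and 0.01 TPM in pool 2. That sum leaves out Adra2b, Adra2c and Drd4, given below, of which Adra2c stood at 5.20 and 1.25 TPM.

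Hcrtr2, the orexin receptor that binds both orexin peptides (chromosome 9, 76225880 to 76323856), was low in each pool, at 1.46 and 1.86 TPM from 67 and 127 reads. In CPM pool 2 was 1.70-fold higher, with a counting interval of 1.25 to 2.32. In TPM the levels lay closer together, since the effective length assigned to the gene was 2301.56 bases in pool 1 and 3044.59 bases in pool 2.

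Of the 10 receptors, 9 had a mean CPM of at least 1 and were set against all genes at that minimum, Drd2 being too low. A difference was called where log2((CPM + 1)/(CPM + 1)) between the libraries was at least 1, or 2-fold, in either direction. Of these 9, 5 passed: Drd1, Adra1a and Adra2a toward pool 1, and Adra1b and Adra1d toward pool 2. Over all 14330 genes at this minimum 10.4% passed, 6.41% toward pool 1 and 3.95% toward pool 2. The median absolute log2 ratio was 1.15 for the 9 receptors and 0.32 for all genes.

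Low counts vary more, and most of the receptors are low. Among 5140 genes with a mean CPM of 1 to 10, 20.9% passed 2-fold, and of the 6 receptors in this range 4 did (Drd1, Adra1b, Adra1d and Adra2a, with Drd5 and Hcrtr2 not past it). Among 7128 genes with a mean CPM of 10 to 100, 5.19% passed, and Adra1a did while Adrb1 did not. Cnr1, at a mean CPM of 158, had a log2 ratio of -0.39. With 1 library on each side these are differences between 2 libraries, with no replicate check, and the receptors were proposed with results of these libraries known.

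**Figure D2:**
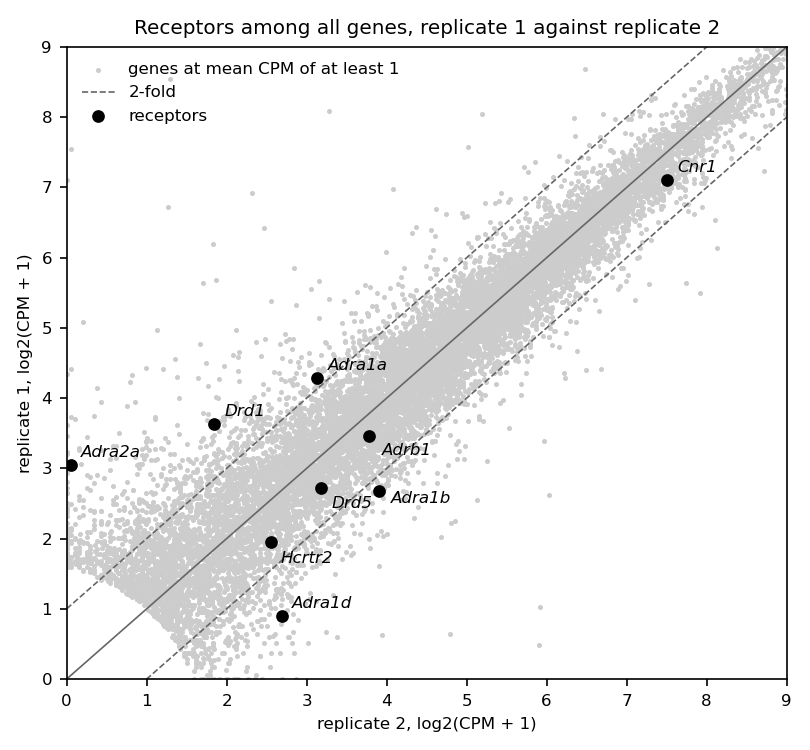
Each grey point is a gene at a mean CPM of at least 1, with log2(CPM + 1) in pool 2 on the horizontal axis and in pool 1 on the vertical axis; black points are 9 of the receptors. The solid line marks equal levels and the dashed lines a 2-fold difference: Adra2a, Drd1 and Adra1a lie above the upper dashed line, and Adra1d and Adra1b below the lower.

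The scaling also mattered. With spike-in totals in place of TMM, the median log2 ratio of all genes moved from -0.01 to 0.33, and the calls toward pool 1 from 61.9% to 85.1% of all calls. Adra1b then fell short of 2-fold, at -0.90, and Adrb1 changed sign from -0.32 to 0.01. Drd1, Adra1a, Adra2a and Adra1d kept their direction and stayed past 2-fold. As a ratio of TPM + 1, Adra1a was at 0.95 and no longer past 2-fold.

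Further receptors of the 4 families were measured too. Adra2c, another cortical alpha2 adrenoceptor, stood highest among them, at 5.20 TPM in pool 1 and 1.25 TPM in pool 2, from 322 and 87 reads. It was 4.14-fold higher in CPM in pool 1, with an interval of 3.26 to 5.31. Adra2a and Adra2c were therefore both higher in pool 1, while Adra2b, with 3 and 27 reads, stood at 0.04 and 0.31 TPM. The summed alpha2 level was 7.54 and 1.57 TPM (4.56 ± 4.22, SD, n = 2). Adrb3, a beta adrenoceptor known from fat tissue, stood at 0.44 and 0.41 TPM.

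Hcrtr1, the orexin receptor selective for orexin A, lay below Hcrtr2 in pool 1 and above it in pool 2, at 1.21 and 2.07 TPM from 52 and 98 reads. Drd4, a Gi-coupled dopamine receptor of cortex, had 27 reads in pool 1 and 0 in pool 2, so with a floor of 3 reads in pool 2 its CPM was at least 10.1-fold higher in pool 1. Drd3 and Cnr2, known from the ventral striatum and from immune cells, had no reads in either library. Floors of 3 reads allow up to 0.111 and 0.0988 TPM for Drd3 and 0.0404 and 0.0361 TPM for Cnr2. Of all 9 adrenoceptor genes 7 reached a mean CPM of 1, and 5 of these passed 2-fold, against the 10.4% of all genes given above.

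Serotonin, muscarinic and metabotropic glutamate receptors, most of which also signal through G proteins, were counted in the same way. At a mean CPM of at least 1, 10.4% of all genes passed 2-fold. Of 7 serotonin receptors at this minimum 1 did, of 3 muscarinic receptors 1 and of 7 metabotropic glutamate receptors 2. Whether these shares differ from that of the 9 receptors was not tested. Median levels were 0.76 and 0.59 TPM for 14 serotonin receptor genes, 6.09 and 2.62 TPM for 5 muscarinic and 10.01 and 11.7 TPM for 8 metabotropic genes, against 2.37 and 2.87 TPM for the 10 receptors. The highest of each list were Htr2c, Htr1f and Htr2a at means of 12.5, 11.02 and 7.13 TPM, Chrm1, Chrm3 and Chrm2 at 14.9, 6.81 and 4.36 TPM, and Grm5, Grm3 and Grm8 at 43.7, 22.2 and 14.7 TPM. By mean TPM Cnr1 stood above each of these genes but Grm5, which was the higher in pool 1, at 53.1 TPM, and the lower in pool 2, at 34.3 TPM. Htr3b, Htr5b, Chrm5 and Grm6 had no reads in either library.

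Transcripts were resolved in pool 1, the library whose transcript table was used here. For Cnr1, 2 coding transcripts with the same coding length of 1419 bases held 53.3% and 46.4% of the TPM. They differ in the untranslated first exon, and each read count had a posterior SD of about 222 reads (1705 and 1494.8 reads), so their order is not resolved. Their summed share was 99.7%. Drd1, Drd5, Adra2a and Adrb1 each had 1 transcript with all the reads, and in each the coding sequence lies in 1 exon. For Drd5, Adra2a and Adrb1 the whole transcript is 1 exon, so no spliced read can separate their mRNA from unspliced RNA or genomic DNA.

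For Adra1a the leading transcript, coding, held 70.3% of the TPM, another coding transcript 22.96% and a retained intron 6.75%. For Adra1b a coding and a processed transcript held 50% each. Their exons are identical in GENCODE M21, so the division carries no information. For Hcrtr2 a retained intron transcript of 1 exon, 1647 bases long, held 64.4% of the TPM, with 29 reads, and the coding transcript of 8 exons held 35.6%, with 38 reads. Counting coding transcripts alone, Hcrtr2 stood at 0.52 TPM in pool 1, and 7 receptors rather than 8 reached TPM 1 there. That count was added after the transcript values were seen.

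**Figure D3:**
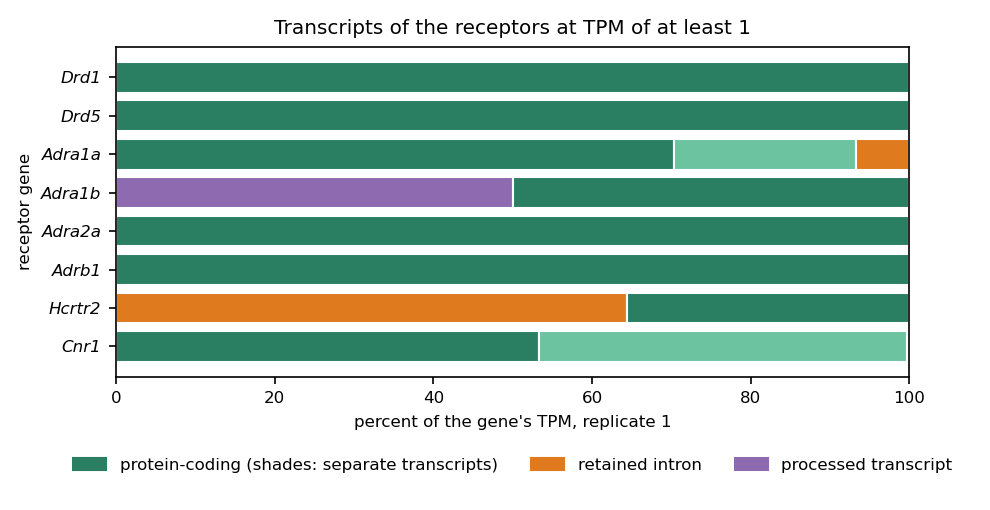
Share of each gene's TPM held by its transcripts in pool 1, in percent on the horizontal axis, for the 8 receptors at a TPM of at least 1. Green shades are separate protein-coding transcripts, orange a retained intron and purple a processed transcript; noncoding annotation takes 64.4% of Hcrtr2 and 50% of Adra1b, and the 0.28% of Cnr1 is too thin to see.

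Upstream sequence was compared between the receptors with the highest and the lowest level. RefSeq (GRCm38) start sites matched 8 of the 10 receptors, with 12 start sites. In the 200 bases before a start, 8 of these 12 held more CpG dinucleotides than the median of 5 over 32851 promoters. Cnr1, the receptor with the highest level, has 3 start sites, whose windows held 29, 24 and 3 CpG. Drd2, with the lowest level, has 1, whose window held 13 CpG (chr9:49340203-49340402, plus strand). The Drd2 window and the Cnr1 window with 29 CpG (chr4:33924064-33924263, plus strand) are printed with each CpG in capitals.
Cnr1: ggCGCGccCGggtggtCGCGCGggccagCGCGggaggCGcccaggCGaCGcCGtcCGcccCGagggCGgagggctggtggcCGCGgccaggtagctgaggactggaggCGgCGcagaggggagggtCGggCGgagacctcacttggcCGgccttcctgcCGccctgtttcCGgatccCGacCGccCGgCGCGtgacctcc
Drd2: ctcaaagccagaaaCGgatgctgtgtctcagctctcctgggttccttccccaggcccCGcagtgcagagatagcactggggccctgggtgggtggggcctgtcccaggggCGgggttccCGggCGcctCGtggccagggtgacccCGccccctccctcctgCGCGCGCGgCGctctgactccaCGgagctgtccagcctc

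Fewer CpG than in the printed Cnr1 window were found in 96.8% of promoters, and fewer than in the Drd2 window in 72.9%. For the other Cnr1 windows the shares were 92.8% and 34.4%, the last of them below the median. TATAAA, on either strand, was found in 1 of the 12 windows, that of Adra2a, and in 9.96% of all promoters. These counts describe letters in a window and say nothing of which start is used.

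Genes of endocannabinoid synthesis and breakdown, with the CB1-binding protein gene Cnrip1, were all present. Each of the 11 endocannabinoid genes reached TPM 1 in both libraries, beside 52.2% of all protein-coding genes. The medians of the 11 were 19.98 and 30.4 TPM. The highest were Gde1, a phosphodiesterase of anandamide synthesis, at 315 and 476 TPM, Abhd12, a hydrolase of 2-arachidonoylglycerol, at 190.1 and 260.4 TPM, and Mgll, the main hydrolase of that lipid, at 129 and 145 TPM. None of the 11 passed 2-fold between the pools, beside 10.4% of all genes at a mean CPM of at least 1.

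Genes that make, carry or remove dopamine, noradrenaline and orexin were mostly low. Of 13 such genes 4 reached TPM 1 in both libraries, beside 52.2% of protein-coding genes and 29.6% of all annotated genes. The medians of the 13 were 0.92 and 0.12 TPM, against 2.02 and 1.84 TPM over protein-coding genes. Of the 13, those described are the monoamine oxidase Maoa at 6.13 and 6.18 TPM and the vesicular transporter Slc18a2 at 4.31 and 7.33 TPM. The noradrenaline transporter Slc6a2 and the adrenaline-forming enzyme Pnmt had no reads in either library. Of the 5 genes at a mean CPM of at least 1, 1 passed 2-fold, beside 10.4% of all genes. It was Th, the rate-limiting enzyme of catecholamine synthesis, which had 52 and 2 reads.

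Downstream of the receptors, most effector genes were detected, where 52.2% of all protein-coding genes reached TPM 1 in both libraries. Of 13 genes of the Gs and cyclic AMP route 12 reached TPM 1 in both libraries, and the medians were 23.8 and 16.2 TPM. They were led by the G protein Gnas at 678 and 638 TPM, the phosphatase inhibitor Ppp1r1a at 249 and 78.4 TPM and the adenylyl cyclase Adcy2 at 35.05 and 36.1 TPM. Of 9 genes of the Gq route 8 were detected in each, with medians of 46.3 and 40.0 TPM, among them the kinase Prkcb at 263 and 382 TPM and the phospholipase Plcb1 at 74.9 and 69.6 TPM.

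All 8 genes of the Gi route reached TPM 1 in both libraries, beside 52.2% of all protein-coding genes. Their medians were 22.9 and 28.2 TPM, and they were led by Gnao1 at 153.9 and 99.6 TPM, Gnai1 at 110.1 and 95.1 TPM and the potassium channel Kcnj3 at 35.8 and 33.2 TPM. All 7 receptor kinases and arrestins, which switch receptors off, were detected, with medians of 5.81 and 6.26 TPM, led by Grk2 at a mean of 9.38, Grk6 at 8.70 and Grk3 at 8.69 TPM. Across these 4 lists 37 genes had a mean CPM of at least 1, where 10.4% of all genes passed 2-fold. Those past 2-fold were Ppp1r1a toward pool 1 and the phospholipase Plcb3 toward pool 2.

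**Figure D4:**
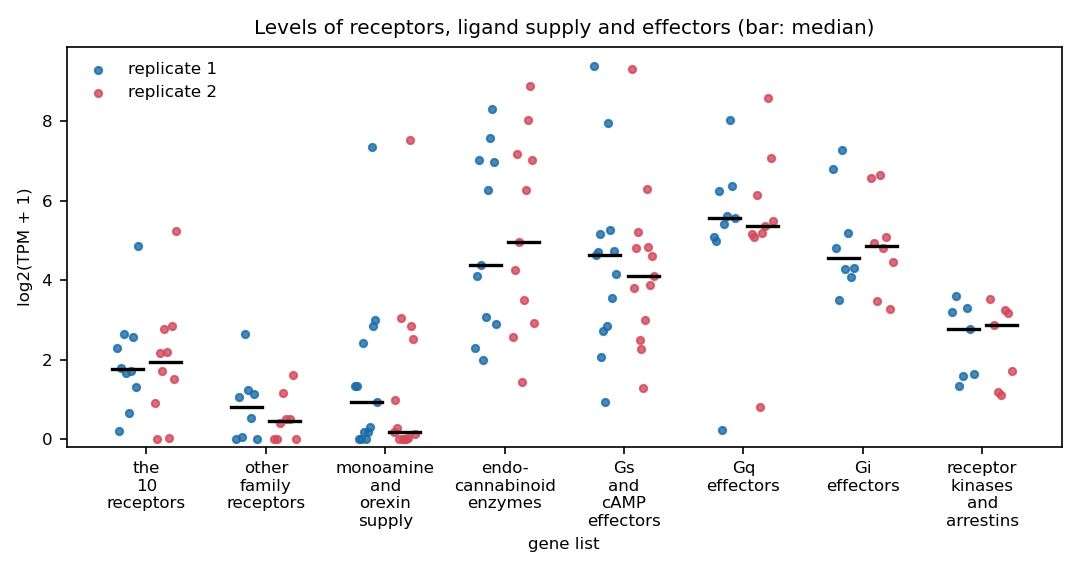
Each point is a gene, as log2(TPM + 1) on the vertical axis, in pool 1 (blue) and pool 2 (red), grouped by list, with a black bar at the median. The receptors have medians of 2.37 and 2.87 TPM, below the endocannabinoid enzymes and the Gs, Gq and Gi effectors.

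Markers of other cells differed between the pools as well, and several lists of them were mostly higher in pool 1. All 7 interneuron markers were higher there, with a summed level of 3874 TPM in pool 1 and 1494 TPM in pool 2 and none at 0. Their highest were Sst at 2506 and 844 TPM, Pvalb at 508 and 338 TPM and Npy at 529 and 202 TPM. Of the 8 markers of Cck and Vip interneurons, cells known for high Cnr1, 7 were higher in pool 1. Their sums of 2815 and 2477 TPM were mostly Cck, at 2648 and 2471 TPM, and hide lower genes that differed more. Vip, the second of that list, stood at 152.8 and 0.03 TPM, from 4365 reads in pool 1 and 1 in pool 2. Sncg had 22 and 0 reads, and Slc17a8 had none in either. The third of that list, Cxcl14, stood at 6.26 and 3.96 TPM. Of the 5 markers at a mean CPM of at least 1, 3 passed 2-fold, all toward pool 1, beside 6.41% of all genes. Cnr1 itself stood at 28.2 and 37.1 TPM, and the part of these cells in its level was not tested.

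Layer 6 and 6b markers, 8 genes, were higher in pool 1 for 6 of them, with sums of 76.2 and 33.9 TPM and Nxph4 at 0 reads in each library. Foxp2, a marker of corticothalamic neurons, had 708 and 31 reads, Rprm stood at 42.9 and 24.4 TPM, Tle4 at 14.9 and 4.60 TPM and Syt6 at 5.33 and 0.45 TPM. Moxd1 went the other way, at 2.59 and 3.02 TPM. Of the 6 layer 6 and 6b markers at a mean CPM of at least 1, 3 passed 2-fold, all toward pool 1, beside 6.41% of all genes. The 7 layer 5 markers had sums of 2345 and 4818 TPM, mostly Pcp4 at 2134 and 4468 TPM. In pool 2, 5 of them were higher, among them Pcp4, Rbp4 at 69.4 and 98.8 TPM and Etv1 at 15.5 and 93.6 TPM. The other 2, Crym at 49.7 and 40.35 TPM and Bcl11b at 12.19 and 10.19 TPM, were higher in pool 1. Of the 7, 3 passed 2-fold toward pool 2, beside 3.95% of all genes at a mean CPM of at least 1. The 6 glutamatergic markers had sums of 606 and 784 TPM, led by Nrgn, Neurod6 and Camk2a at means of 428, 96.1 and 83.9 TPM.

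All 5 markers of oligodendrocyte precursors were higher in pool 1, with sums of 21.2 and 7.32 TPM, led by Vcan, Pdgfra and Cacng4 at means of 3.76, 3.59 and 3.11 TPM. So were all 6 microglial markers, with sums of 74.5 and 25.9 TPM, led by C1qb, C1qa and P2ry12 at 26.6, 10.8 and 6.13 TPM. Past 2-fold toward pool 1 were 4 of the 5 precursor and 5 of the 6 microglial markers, beside 6.41% of all genes. Astrocyte markers, 10 genes, were divided 5 to 5, with sums of 567 and 653 TPM, led by Aldoc, S100b and Slc1a2 at 299, 139 and 74.5 TPM. Oligodendrocyte markers had sums of 487 and 621 TPM over 6 genes, among them Mbp and Mobp at 247 and 69.3 TPM. Vascular markers had sums of 126.1 and 125.8 TPM over 9 genes, led by Itm2a, Ly6c1 and Vtn at 54.1, 38.6 and 15.04 TPM. Yet 3 of the 9 passed 2-fold, in opposite directions, beside 10.4% of all genes at a mean CPM of at least 1. Acta2, of smooth muscle, had 391 reads in pool 1 and 8 in pool 2, whereas Vtn had 86 and 704 reads and the pericyte gene Pdgfrb 3 and 126.

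Of the 9 markers of striatal medium spiny neurons, cells known for high Drd1 and Drd2, 7 were higher in pool 1, with sums of 411 and 167 TPM. Tac1, Penk and Ppp1r1b led the list at means of 165, 51.4 and 32.5 TPM. Adora2a, which defines the Drd2 cells among them, had no reads in either library. The part of any of these cells in the receptor differences was not tested.

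**Figure D5:**
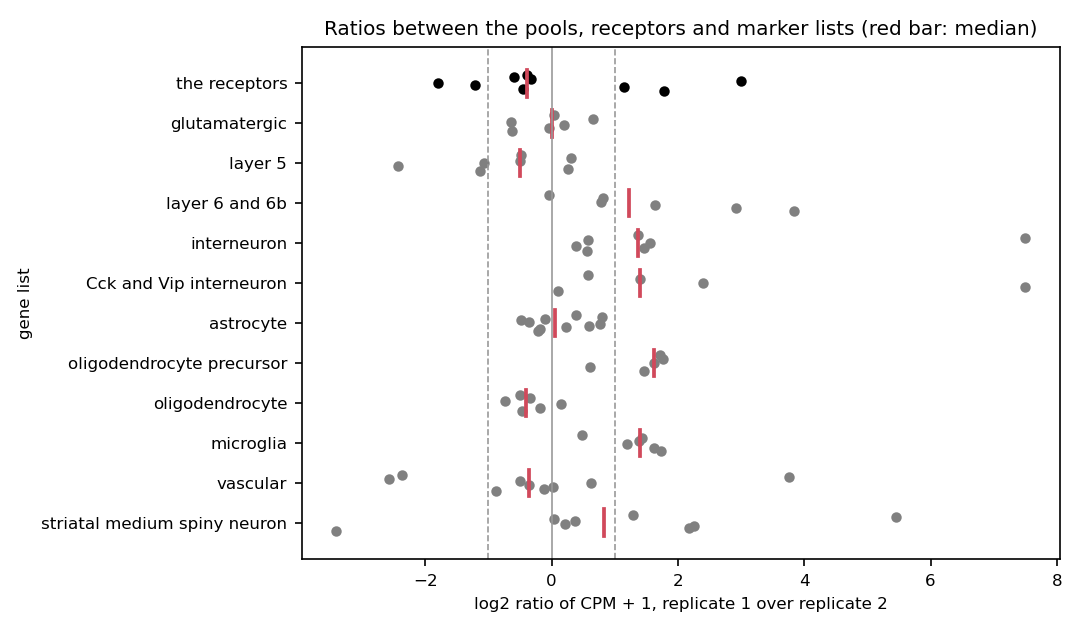
Log2 ratio of CPM + 1, pool 1 over pool 2, for 9 of the receptors (black) and for marker genes (grey) at a mean CPM of at least 1, by list, with a red bar at the median and dashed lines at 2-fold. The receptors lie on both sides, with a median of -0.39, while the medians of both interneuron lists and of the oligodendrocyte precursor, microglial and layer 6 lists lie above 1.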

How the data were processed

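The authors deposited, for each of the 2 libraries, an expected count (estimated reads per gene, not normalized), TPM scaled over all features, spike-ins included, and FPKM, per the file headers. The percent of a gene's TPM held by each transcript comes from the deposited transcript table of replicate 1. Values were quantified on mm10 with GENCODE M4, per text files that the authors added. The aligner, quantifier and strand use are not named in the sources used here. Symbols, biotypes and gene coordinates came from GENCODE M21 on the same build, by identifier without version (42462 of 43346 matched).

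Expected counts were rounded for edgeR 4.0.16 (R 4.3.3), whose TMM factors scaled CPM over gene rows. Spike-ins (4.28% and 5.32% of reads) and numeric identifiers were left out of library sizes. No p-value was computed. Ratios used a pseudocount of 1 CPM and a mean CPM of at least 1; intervals are exact at 95%, and a library at 0 reads has a floor of 3 reads. The script for the ratios was checked on simulated counts, which does not test the calls reported. Alternatives were DESeq2 1.42.0 size factors, spike-in totals, FPKM, posterior mean TPM and other minimums and pseudocounts. Intervals came from scipy 1.17.1 and tables from pandas 2.3.3, in Python 3.11.15.

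The receptors and all lists were chosen with earlier results of these data known. Named were all receptors of the families, and of each other list the 3 highest by mean TPM and those at 0 reads in both libraries, except that some of these genes are not reported here. Further genes (Th, Plcb3, Cnrip1, Syt6, Moxd1, Sncg, Crym, Bcl11b, Acta2 and Pdgfrb) were named after their values were seen. No gene was named for a pattern like a receptor's, since 2 libraries give 1 ratio only.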

Additional observations from a re-analysis of the deposited data

How the results depend on the processing

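Of 110 alternative values for 25 results, 102 were classed as the same and 6 moved further. Another 2 fell short of 2-fold (Adra1a as a ratio of TPM and Adra1b with spike-in totals, given above). For levels and ratios, the same means a move within the spread or no crossing of 2-fold. Counts have no spread, and some of those in this class shifted. The genes past 2-fold, 1485 (10.4%), became 1905 (13.3%) with spike-in totals and 2137 (14.9%) with a pseudocount of 0.1 CPM. With no filter beyond 1 read they were 1821 of 21867 (8.33%). Among the 102 is the ratio of Adrb1, which changed sign with spike-in totals (-0.32 to 0.01) and was past 2-fold with neither scaling. The median level of the 10 receptors, 2.62 ± 0.36 TPM (SD, n = 2), was 2.13 in FPKM, a unit with another scale. In FPKM the mean level of Adrb1 was 4.52 and that of Hcrtr2 1.35. At TPM of at least 5 the 6 receptors detected in each library became 1. The 1485 genes past 2-fold became 410 of 9190 at a mean CPM of at least 10, where fewer genes are tested. The excess of Cnr1 over Adrb1 was 2.53 with a pseudocount of 0.1 TPM. The number of receptors past 2-fold was 4 or 5 under the scalings and pseudocounts tried. Without replicate 1 or without replicate 2 the median level was 2.87 or 2.37 TPM, the receptors detected 7 or 8 and the excess of Cnr1 2.40 or 2.31; no ratio can be had from 1 library. No paired analysis was possible because there is 1 group. Depth limits Drd2, Adra1d in replicate 1 and Adra2a in replicate 2 most, with 20 reads or fewer each.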
